A study of Mus musculus with 30 samples.

Results

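The IFNβ response of 2 mouse tumor cell lines was compared gene by gene: how far the change with IFNβ in B16F10 cells differed from the change in 6694c2 cells. B16F10 is a mouse melanoma line, and 6694c2 is a pancreatic ductal adenocarcinoma line derived from female mice whose engineered alleles included a floxed p53 allele, Pdx-cre and a floxed YFP reporter. Cells of each line were cultured with IFNβ at 1000 U/mL for 24 h or with vehicle, and bulk RNA was sequenced from 3 libraries per group. The study ran these cultures beside others of the same lines to see how tumor cells answer a STING agonist. The 12 libraries used here, out of 30 samples in the series, were chosen by their labels as the B16F10 vehicle, B16F10 IFNβ, 6694c2 vehicle and 6694c2 IFNβ groups. Both lines were treated in dishes, so no immune or stromal cell was added by design, and each line stands for 1 tumor model only.

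The measurement is an interaction: the log2 fold change with IFNβ in B16F10 minus the log2 fold change in 6694c2. A positive interaction means that the gene responded more positively in B16F10, either because it rose more there or because it fell more in 6694c2. A negative one means the reverse. Of 49315 genes counted, the 19209 with at least 10 reads over the 12 libraries were tested, and a gene was called when its adjusted p was under 0.05 over all of them. Genes over 10 times higher in 1 line's vehicle libraries than in the other's were marked, 1080 for B16F10 and 1008 for 6694c2, so that their values can be read with the level in the lower line in view.

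Type I interferon binds a receptor made of IFNAR1 and IFNAR2, and the kinases JAK1 and TYK2 on that receptor phosphorylate STAT proteins. These join IRF9 to form a complex that enters the nucleus and binds interferon-stimulated response elements in the promoters of interferon-stimulated genes. Among those genes are parts of the complex itself, such as STAT2 and IRF9, which makes the response self-amplifying, IRF7, which drives further interferon production, and USP18 and SOCS1, which shut the receptor down. In tumor cells the pathway also raises antigen presentation on MHC class I and can slow division.

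The IFNβ effect differed between the lines for 1944 genes (10.1% of those tested, edgeR quasi-likelihood test), 967 of them more positive in B16F10 (5.03%) and 977 more positive in 6694c2 (5.09%). The difference exceeded 2-fold for 276 and 208 of these. Without the genes marked as over 10 times higher in 1 line's vehicle libraries, it did so for 128 and 162. The larger count thus changed sides. The median interaction over all genes tested was 0.04. Within B16F10 IFNβ raised 1860 genes (9.68%) and lowered 1758 (9.15%), and in 6694c2 it raised 1665 (8.67%) and lowered 1781 (9.27%). The count of genes more positive in B16F10 was 600 without B16F10 vehicle 1 and 587 without B16F10 vehicle 3, and the count lowered in 6694c2 was 1185 without 6694c2 vehicle 2. With any 1 library left out, more genes were called toward 6694c2 than toward B16F10. Because bulk RNA was measured, fewer responding cells and less RNA per responding cell cannot be told apart in any of these values.

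Of the 679 genes raised in both lines, 467 had no called difference, 184 rose more in 6694c2 and 28 rose more in B16F10. The 28 were 17 without B16F10 vehicle 1, 18 without B16F10 vehicle 3 and 18 without 6694c2 vehicle 3. Most of the 977 genes with a more positive effect in 6694c2 came from 343 genes lowered in B16F10 and not called in 6694c2, and from 311 raised in 6694c2 and not called in B16F10. On the other side, 405 genes were lowered in 6694c2 and not called in B16F10, and 324 were raised in B16F10 and not called in 6694c2. The 184 genes raised in both and more so in 6694c2 held 31 of the 42 antiviral effectors measured. Before treatment 121 of the 184 were higher in B16F10 and 33 higher in 6694c2, against 31.5% and 30.8% of all genes tested. With IFNβ, 55 of the 184 were higher in B16F10, 91 were higher in 6694c2 and 38 had no called line difference, against 33.9% and 32% higher in either line among all genes. The interaction equals the line difference with IFNβ minus the line difference in vehicle, so these counts describe the same quantity and are no separate evidence.

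**Figure D1:**
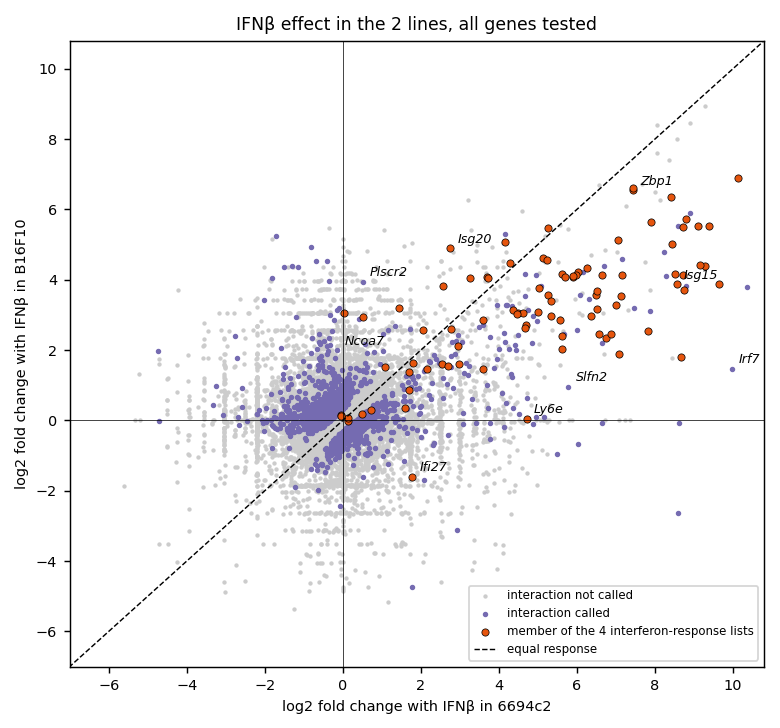
Log2 fold change with IFNβ in 6694c2 (horizontal) and B16F10 (vertical) for the 19209 genes tested; purple points have a called interaction and orange points belong to the 4 interferon-response lists. The 88 measured list members lie mostly to the right and below the dashed line of equal response, and their median rise was 3.24 in B16F10 and 5.30 in 6694c2 on the log2 scale.

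Total reads on genes ranged from 17450954 to 19224703 in 6694c2 vehicle, 23771255 to 32266795 in 6694c2 IFNβ, 19688783 to 24019834 in B16F10 vehicle and 22411582 to 23577050 in B16F10 IFNβ. The lines carried their markers: all 12 melanocyte genes listed were higher in B16F10 vehicle (31.5% of all genes tested). Of 12 epithelial and ductal genes, 10 were higher in 6694c2 vehicle (30.8% of all genes). Each line also held a trace of the other's transcripts. Over 87 genes specific to B16F10, 6694c2 vehicle libraries held a median of 0.528% to 0.589% of the B16F10 vehicle level. The 6694c2 IFNβ libraries held 0.225% to 0.332% of it. Over 106 genes specific to 6694c2, B16F10 vehicle libraries held 0.211% to 0.279% of the 6694c2 vehicle level and B16F10 IFNβ libraries 0.223% to 0.632%. Shares of the other line's level are given below for the genes described at length, and the part of these traces in their values was not tested.

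The receptor itself differed little between the lines in its response. Ifnar1, the chain that recruits TYK2, was at 54.1 ± 2.40 counts scaled to library size (CPM) in B16F10 vehicle and 39.1 ± 1.65 in 6694c2 vehicle (mean ± SD, n = 3 here and throughout), and it had no called change with IFNβ in either line. Ifnar2, the high-affinity chain, rose by a log2 fold change of 0.35 in B16F10 and 0.45 in 6694c2, with an interaction of -0.10 (SE 0.142). Of the 15 measured genes of the receptor, JAK-STAT and its brakes, 4 had a more positive effect in 6694c2 and none in B16F10 (11 not called), against 5.09% and 5.03% of all genes tested, Usp18, Irf9 and Stat2 among them.

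Irf9, the DNA-binding part of the complex, was at 43.8, 42.0 and 44.0 CPM in B16F10 vehicle and 4.99, 4.99 and 5.39 in 6694c2 vehicle. With IFNβ it reached 111, 103 and 108 in B16F10 and 104, 96.1 and 105 in 6694c2, so the lines overlapped after treatment from starting levels that did not (interaction -3.00, SE 0.118, adjusted p = 1.16e-16). The line difference of Irf9 with IFNβ was 0.08 on the log2 scale, with a 95% interval of -0.06 to 0.22. For scale, Parp12, an antiviral PARP at a ratio of 10.3 between the vehicle groups, lies just past the limit for marking a gene as specific to B16F10, and Ifit3, at 9.90, lies just short of it.

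Usp18, the protease that removes ISG15 from proteins and blocks the receptor, was at 50.7 ± 5.03 CPM in B16F10 vehicle and 1.64 ± 0.628 in 6694c2 vehicle, and at 878 ± 26.2 and 506 ± 32 with IFNβ. Its interaction was -4.17 (SE 0.173, adjusted p = 3.06e-16). The 6694c2 vehicle level of Usp18 was 0.187% of the B16F10 IFNβ level. Stat2, another part of the complex, rose by 4.15 in B16F10 and 4.67 in 6694c2 on the log2 scale, and its small interaction of -0.51 (adjusted p = 0.0421) was lost in 6 of 22 alternatives, each of them leaving out 1 library. Those libraries were B16F10 vehicle 3, B16F10 IFNβ 1 and 2, 6694c2 vehicle 1 and 2, and 6694c2 IFNβ 1, with adjusted p-values of up to 0.118. Socs1, the inducible inhibitor of the JAK kinases, rose in both lines and had an interaction of -0.30 (SE 0.337), not called.

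Irf7 gave the largest called interaction among the named genes. This factor amplifies interferon production, and its counts in vehicle were near nothing in both lines, at 0.577, 0.886 and 1.30 CPM in B16F10 and 1.47, 0.785 and 0.612 in 6694c2. With IFNβ it reached 931, 931 and 1034 CPM in 6694c2 and only 2.68, 2.31 and 2.88 in B16F10. Every 6694c2 IFNβ library lay far above every B16F10 library, and the interaction was -8.50 (SE 0.385, adjusted p = 2.69e-15). The B16F10 IFNβ mean of 2.62 CPM was 0.272% of the 6694c2 IFNβ mean. That number lies inside the range of traces given above, which are shares of a vehicle level. The part of the traces in the called rise in B16F10 (1.47 on the log2 scale) was not tested. Irf7 lies on chromosome 7 at 141262706-141266481, minus strand, by the coordinates of the count files. Of the other 7 factors listed with it (Irf9 was counted with the receptor genes above), Irf1 had a small negative interaction (-0.57, adjusted p = 0.00819). Irf1 was at 39.5 ± 4.02 CPM in B16F10 IFNβ and 106 ± 4.86 in 6694c2 IFNβ. The remaining 6 of the list were not called.

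**Figure D2:**
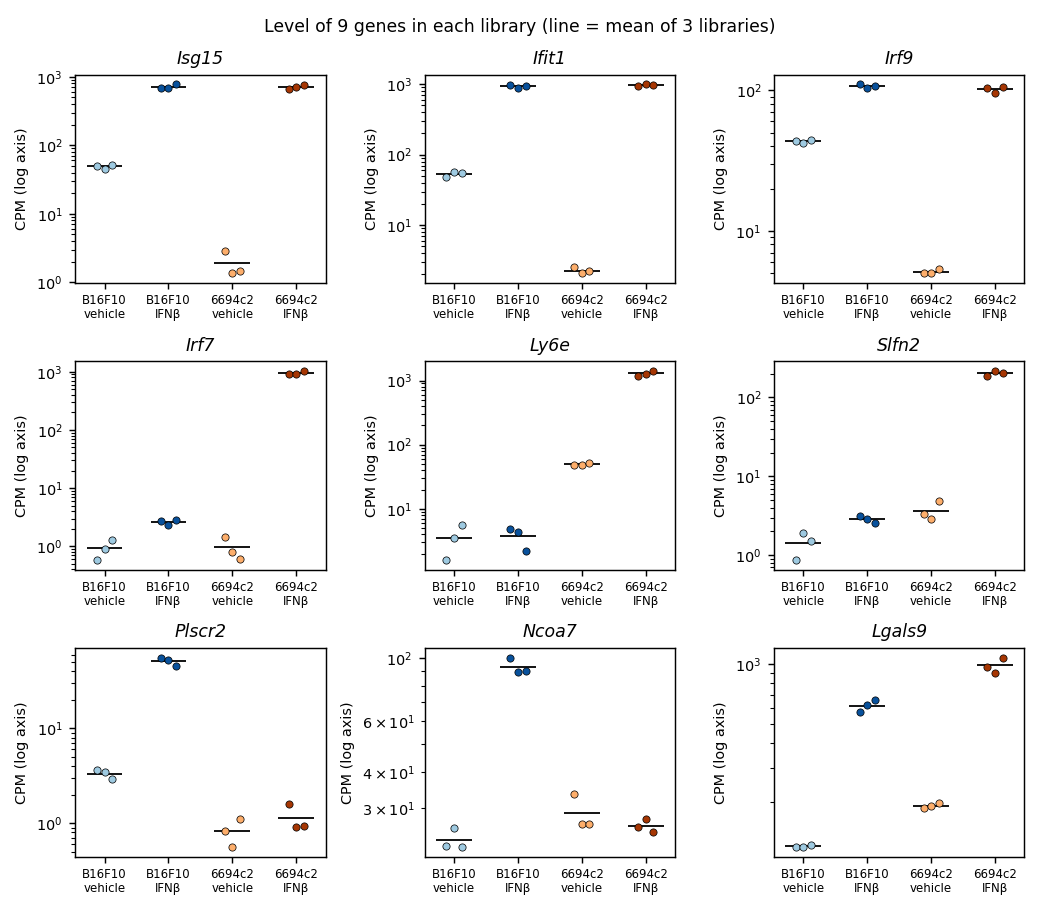
CPM on a log axis for 9 genes in each of the 12 libraries, with a line at the mean of each group of 3. Isg15, Ifit1 and Irf9 reach overlapping levels in both lines from vehicle levels that do not overlap, Irf7, Ly6e and Slfn2 rise past 100 CPM only in 6694c2, Plscr2 and Ncoa7 rise in B16F10 and have no called change in 6694c2, and Lgals9 rises alike in both.

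The interferon-stimulated genes proper rose in both lines, and most rose more in 6694c2. Over 4 lists (RNA and DNA sensors, antiviral effectors, ISG15 conjugation and PARPs, guanylate-binding proteins and immunity-related GTPases), 88 of 89 members were measured, 77 rose in B16F10 and 79 rose in 6694c2. Over all genes tested, 9.68% rose in B16F10 and 8.67% in 6694c2. Of the 88, 62 had a more positive effect in 6694c2, 2 in B16F10 and 24 were not called. All genes tested gave shares of 5.09% and 5.03%. The median interaction of the 88 was -1.82 against 0.04 over all genes. In vehicle 57 of the 88 were higher in B16F10 and 11 in 6694c2, against 31.5% and 30.8% of all genes tested. Their median line difference was 1.20 on the log2 scale. With IFNβ 30 were higher in B16F10 and 33 in 6694c2, close to the shares of all genes tested (33.9% and 32%), with a median of 0.00. Without genes over 10 times higher in 1 line's vehicle libraries, 40 of 63 were more positive in 6694c2 and 1 in B16F10. Without genes under 2% of the other line's level in any group, 39 members were left and their median was -0.70. That limit sets the lower group of a line against the higher group of the other. It drops genes that rose far from a low level in 6694c2, such as Isg15 and Ifit1. Part of the smaller median thus follows from the rule itself.

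Isg15, a ubiquitin-like protein that is attached to other proteins, was at 50.6, 45.0 and 51.8 CPM in B16F10 vehicle, and at 2.87, 1.35 and 1.47 in 6694c2 vehicle. With IFNβ it was at 678, 696 and 786 in B16F10 and 674, 710 and 771 in 6694c2. The treated groups overlapped and the vehicle groups did not: Isg15 rose 14.7-fold in B16F10 and 379-fold in 6694c2, an interaction of -4.69 (SE 0.178, adjusted p = 5.15e-17). The line difference with IFNβ was 0.00 on the log2 scale (95% interval -0.18 to 0.19). Ifit1, which binds viral RNA lacking a host cap, behaved alike at 48.9, 56.1 and 54.7 CPM in B16F10 vehicle and 2.52, 2.08 and 2.20 in 6694c2 vehicle. It reached 958, 895 and 932 CPM in B16F10 and 934, 1005 and 958 in 6694c2 (interaction -4.61, SE 0.130, adjusted p = 2.05e-19). The 6694c2 vehicle means of Isg15 and Ifit1 were 0.263% and 0.244% of the B16F10 IFNβ means. The 0.528% to 0.589% held by B16F10-specific genes in those libraries is a share of the B16F10 vehicle level. These shares have unlike bases, and the part of the traces in the 6694c2 vehicle means was not tested. The B16F10 vehicle means of Isg15 and Ifit1 were 6.84% and 5.51% of the 6694c2 IFNβ means.

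Ddx58, which encodes the RNA sensor RIG-I, went from 72.8 ± 2.84 to 388 ± 10.3 CPM in B16F10 and from 7.63 ± 0.780 to 375 ± 7.61 in 6694c2 (interaction -3.21, SE 0.109, adjusted p = 4.02e-18). Its relative Ifih1, the sensor MDA5, ended higher in B16F10, at 260 ± 13.3 CPM against 90.0 ± 1.22 in 6694c2, and still had an interaction of -2.73 (adjusted p = 1.59e-13). Rsad2, which makes a chain-terminating nucleotide, likewise ended higher in B16F10 (1927 ± 103 against 564 ± 16.4 CPM) from a vehicle level of 109 ± 11.2 against 3.99 ± 1.05, with an interaction of -3.00 (adjusted p = 1.92e-14). A higher final level and a smaller fold change thus stood together in B16F10 for both genes. The 6694c2 vehicle level was 0.207% of the B16F10 IFNβ level for Rsad2 and 0.213% for Ifit3. Ifit3 had an interaction of -3.58 (adjusted p = 5.27e-12); its near-identical copy Ifit3b could share its reads, so the split between them is uncertain, as it is for Oas1a and Oas1g and for Tgtp1 and Tgtp2.

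Of 18 RNA and DNA sensors, 12 were more positive in 6694c2 and none in B16F10, against 5.09% and 5.03% of all genes tested (6 not called, median interaction -1.14). Ifi209, a DNA-binding member of the PYHIN family, had the lowest called value at -3.59 (adjusted p = 8.84e-06), and Znfx1, a helicase that senses viral RNA, the highest at -0.75 (adjusted p = 5.76e-05). The adaptors Mavs and Tmem173, which relay RNA and DNA sensing, had no called change in either line. Tmem173, which encodes STING, was at 29.0 ± 0.682 CPM in B16F10 vehicle and 1.93 ± 0.502 in 6694c2 vehicle. Among 42 antiviral effectors measured of 43, 34 were more positive in 6694c2, 1 in B16F10 and 7 were not called, against the same shares of all genes. Their median was -3.14 (-3.03 with the member at 0 reads in a group set to its bound). In the ISG15 and PARP list the figures were 9 of 10 and none, with a median of -2.20, and the smallest called value was that of Dtx3l (-1.22, adjusted p = 4.50e-07), a ubiquitin ligase.

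Guanylate-binding proteins and immunity-related GTPases, which attack vacuoles of intracellular microbes, differed less. Of 18, 7 were more positive in 6694c2, 1 in B16F10 and 10 were not called. Over all genes tested 5.09% and 5.03% were called in these directions. The median of the 18 was -0.46. That median was -0.86 without B16F10 vehicle 1, -0.76 without 6694c2 vehicle 1, -0.24 without 6694c2 vehicle 3 and -0.19 without B16F10 vehicle 2. Irgm1, a regulatory member of these GTPases, was at 67.5, 80.9 and 74.5 CPM in B16F10 vehicle and 27.7, 29.5 and 24.1 in 6694c2 vehicle, and at 646, 608 and 575 against 582, 584 and 622 with IFNβ (interaction -1.42, SE 0.113, adjusted p = 5.36e-10). Gbp2 was the 1 member with a more positive effect in B16F10, at 0.80 (SE 0.254, adjusted p = 0.0437). Its vehicle values were 9.28, 27.6 and 17.2 CPM in B16F10 and 36.4, 34.3 and 23.9 in 6694c2, so the groups overlapped before treatment, and both lines reached a mean of 302 CPM. The call on Gbp2 was lost in 13 of 22 alternatives, DESeq2, the filterByExpr minimum and the robust fit among them, with an adjusted p of up to 0.322; the other 10 each left out 1 library, namely any library but B16F10 vehicle 2 and 6694c2 vehicle 3.

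**Figure D3:**
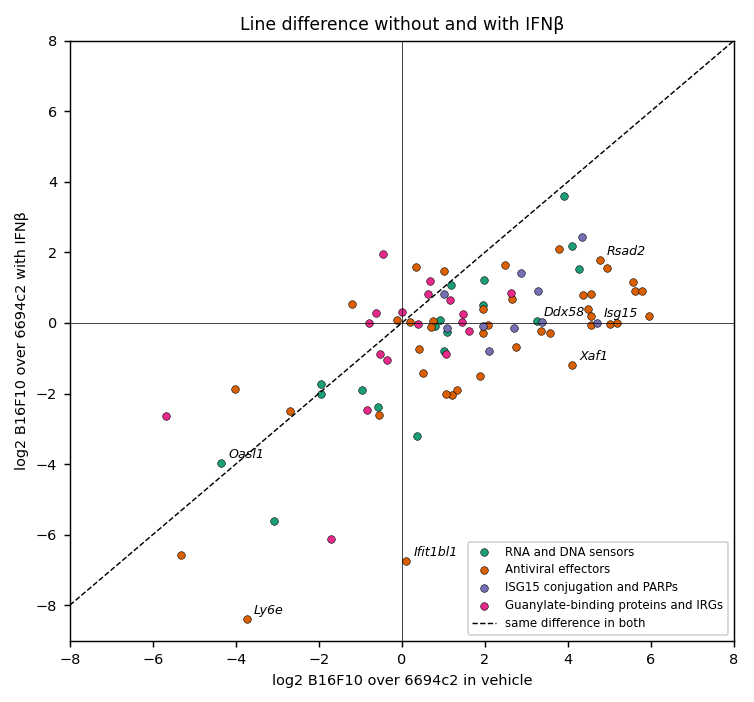
Line difference (log2 of B16F10 over 6694c2) in vehicle on the horizontal axis and with IFNβ on the vertical axis for the 88 measured members of the 4 interferon-response lists. In vehicle the members spread to the right of 0, with 57 called higher in B16F10 (31.5% of all genes tested). With IFNβ they gather around 0, with 49 of 88 within 2-fold compared with 24 in vehicle.

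A smaller set of genes answered in 6694c2 with little or no answer in B16F10. Ly6e, a membrane protein that restricts entry of some viruses, was at 1.59, 3.54 and 5.62 CPM in B16F10 vehicle and 4.83, 4.39 and 2.23 with IFNβ, with no called change. In 6694c2 it went from 47.8, 48.6 and 51.2 to 1195, 1271 and 1413 CPM, an interaction of -4.66 (SE 0.304, adjusted p = 7.30e-12). The B16F10 IFNβ mean was 0.295% of the 6694c2 IFNβ mean. Ly6e was picked out after its values were seen, since it is over 10 times higher in 6694c2 vehicle. Its chromosome 15 neighbor in the same gene family, Ly6a, a stem cell antigen, went from 5.05 ± 0.769 to 104 ± 11.9 CPM in 6694c2 and from 0.894 ± 0.141 to 1.15 ± 0.445 in B16F10, where it was not called (interaction -4.01, adjusted p = 1.96e-09). Both genes thus reached high levels in 6694c2 alone.

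Slfn2, a Schlafen gene tied to quiescence in lymphocytes, was at 3.34, 2.86 and 4.84 CPM in 6694c2 vehicle and 184, 217 and 205 with IFNβ. In B16F10 it was at 0.865, 1.89 and 1.53 and then 3.12, 2.85 and 2.56, a smaller rise at 1.41% of the 6694c2 IFNβ level (interaction -4.83, SE 0.294, adjusted p = 1.97e-12). Ifit1bl1, a neighbor and relative of Ifit1 on chromosome 19, went from 0.411, 0.280 and 0.122 to 115, 111 and 112 CPM in 6694c2. In B16F10, where Ifit1 itself reached 928 CPM, Ifit1bl1 only reached 0.892, 0.731 and 1.54 CPM (interaction -6.85, SE 0.627, adjusted p = 8.13e-09), or 0.933% of the 6694c2 level. Reads shared among the Ifit genes could move between these rows, so the low values are uncertain. Cfb, complement factor B, went from 6.42 ± 0.688 to 112 ± 18.2 CPM in 6694c2 and was at 0.594 ± 0.244 and 0.503 ± 0.339 in B16F10 (interaction -4.32, adjusted p = 8.78e-07). The B16F10 levels of Cfb were 0.528% (vehicle) and 0.447% (IFNβ) of its 6694c2 IFNβ level.

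Pax5, the transcription factor that defines B cells, went from 1.17, 1.06 and 1.77 to 38.7, 30.6 and 36.9 CPM in 6694c2, with 0.481, 1.37 and 1.45 and then 2.19, 1.62 and 1.46 in B16F10 (interaction -4.11, SE 0.376, adjusted p = 8.53e-09). It was the 1 called gene of 7 B-cell markers. The other 6, among them Ms4a1 and Ighm, had no called change in either line, and the 7 summed to 59.3 to 68.0 CPM in 6694c2 IFNβ, 27.2 to 35.1 in 6694c2 vehicle, 19.5 to 34.1 in B16F10 IFNβ and 12.9 to 27.1 in B16F10 vehicle, with none at 0.

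Ddx60, a helicase that assists RIG-I, rose in both lines, from 3.22 ± 0.238 to 45.3 ± 3.12 CPM in B16F10 and from 0.235 ± 0.0103 to 107 ± 12.6 in 6694c2 (interaction -4.99, adjusted p = 5.87e-13), and its 6694c2 vehicle level was 0.518% of the B16F10 IFNβ level. Gvin1, a giant interferon-inducible GTPase, reached 25.9, 19.0 and 25 CPM in 6694c2 against 0.446, 0.308 and 0.243 in B16F10 (interaction -4.41, adjusted p = 0.0163), a call lost without B16F10 vehicle 2 or B16F10 vehicle 3 (adjusted p of up to 0.136). Phf11a, a gene of the Phf11 cluster, and Ifit1bl2, another relative of Ifit1, had 0 reads in all 3 libraries of 6694c2 vehicle. Against a floor of 3 reads over the group, Phf11a was at least 121-fold higher with IFNβ in 6694c2, and it rose 15.7-fold in B16F10. Ifit1bl2 was at least 58.0-fold higher with IFNβ in 6694c2 and rose 21.1-fold in B16F10. Their calls rested on few reads, and they were lost without B16F10 vehicle 3 for Phf11a (adjusted p of up to 0.143) and without B16F10 vehicle 1 or 2, or any 6694c2 vehicle library, for Ifit1bl2 (up to 0.0851).

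Other interferon-stimulated genes rose in both lines without a called difference. Zbp1, which senses Z-form nucleic acid and triggers cell death, went from 1.11, 2.21 and 2.48 to 175, 183 and 197 CPM in B16F10 and from 1.76, 1.06 and 0.551 to 197, 178 and 215 in 6694c2. Both lines overlapped before and after treatment, and the interaction of -0.89 (SE 0.311, 95% interval -1.53 to -0.25, adjusted p = 0.0694) missed the call. It was called in 7 of 21 alternatives. The 6694c2 vehicle level of Zbp1 was 0.608% of the B16F10 IFNβ level. Lgals9, which encodes galectin-9, rose by 2.36 on the log2 scale in each line, and its interaction had a 95% interval of -0.20 to 0.21. Ifi204, a DNA-binding PYHIN protein, rose by 5.49 and 5.27, Oasl1, a translation inhibitor, by 4.07 and 3.70, and Pml, the organizer of nuclear bodies, by 1.64 and 1.80 in B16F10 and 6694c2. None of the 3 had a called interaction, with 95% intervals of -0.14 to 0.57, 0.06 to 0.69 and -0.41 to 0.10. Mx1, a dynamin-like antiviral GTPase, was not called either (-0.83, SE 0.423), with 195 ± 9.06 CPM in B16F10 IFNβ and 62.0 ± 6.85 in 6694c2 IFNβ, and it was called without 6694c2 vehicle 3. The 6694c2 vehicle level of Mx1 was 0.184% of the B16F10 IFNβ level, and the B16F10 vehicle level of Oasl1 was 0.376% of the 6694c2 IFNβ level.

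**Figure D4:**
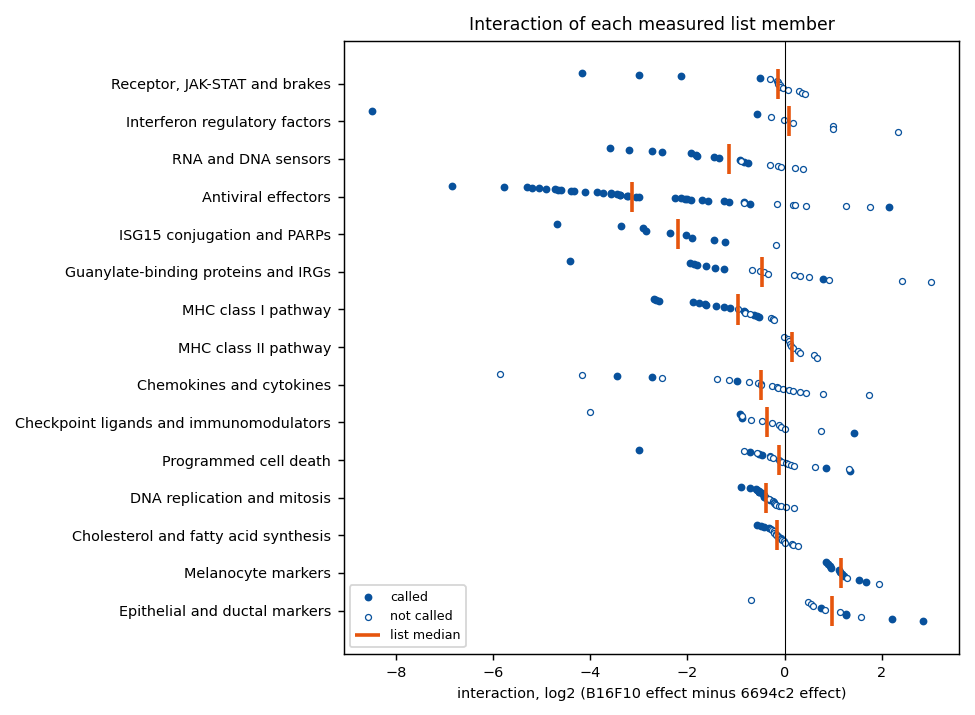
Interaction (log2, B16F10 effect minus 6694c2 effect) of each measured member of 15 gene lists; filled points are called, open points are not, and the orange bar is the list median. The antiviral, ISG15 and sensor lists lie left of 0 with medians of -3.14, -2.20 and -1.14, the replication list is shifted by -0.38, and the medians of the melanocyte and epithelial markers, 1.16 and 0.98 (0.49 without B16F10 IFNβ 1), lie right of 0.

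Promoter sequence was compared across these patterns. In the 250 bases before the RefSeq start (GRCm38.p6), the core of the interferon-stimulated response element was searched on both strands as GAAA, any 2 bases, GAAA. It was present for 412 of 12526 tested genes with a promoter in the table (3.29%), and for 936 of 27025 promoters overall (3.46%). Among genes raised in both lines it was found for 41 of 154 with a more positive effect in 6694c2 (26.6%), 5 of 19 with a more positive effect in B16F10 (26.3%) and 36 of 353 with no called difference (10.2%). Among genes raised in 1 line alone with a called interaction, it was found for 10 of 224 raised in 6694c2 (4.46%) and 13 of 259 raised in B16F10 (5.02%). For genes lowered in 1 line alone it was found for 7 of 314 in 6694c2 (2.23%) and 9 of 273 in B16F10 (3.30%). The core of the gamma-activated site, TTCCNGGAA, was found for 1.24% of tested genes and for 4.55%, 0.00% and 2.27% of the classes raised in both lines, in the same order. These shares are a description of letters and say nothing of binding.

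The stretches below show 1 match to the core each, in capitals on the strand of the gene, in promoters of genes raised by IFNβ. They are read 5′ to 3′ up to the gene start at most. The windows of Ifit1, Irgm1 and Ddx60 hold 2 matches and that of Isg15 holds 3, and the others of these are not capitalised. Ifit1, Isg15 and Irgm1 reached like levels in both lines from a higher start in B16F10.
Ifit1, chr19:34640779-34640838, plus strand: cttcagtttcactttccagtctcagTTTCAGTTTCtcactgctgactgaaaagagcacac
Isg15, chr4:156200850-156200909, minus strand: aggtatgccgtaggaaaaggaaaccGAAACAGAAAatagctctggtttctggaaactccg
Irgm1, chr11:48871421-48871469, minus strand: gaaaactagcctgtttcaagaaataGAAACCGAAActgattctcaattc
Ifit1bl1 and Ddx60 rose far more in 6694c2.
Ifit1bl1, chr19:34602038-34602097, minus strand: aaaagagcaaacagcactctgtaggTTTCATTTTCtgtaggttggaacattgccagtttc
Ddx60, chr8:61928043-61928086, plus strand: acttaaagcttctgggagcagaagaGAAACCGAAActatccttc
Gbp2 and Lgals9 rose as much or more in B16F10.
Gbp2, chr3:142620579-142620638, plus strand: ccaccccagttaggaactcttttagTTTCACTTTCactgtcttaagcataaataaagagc
Lgals9, chr11:78984945-78985004, minus strand: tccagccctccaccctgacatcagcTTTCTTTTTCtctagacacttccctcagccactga
Only genes with a match were printed, so these stretches do not show how often the core stands in the promoters of a pattern. Genes lowered by IFNβ have no stretch here. Irf7, Irf9, Ddx58, Slfn2, Ncoa7, Isg20, Cd47, Tap1 and Psmb9 hold no match to these letters in the window searched, which says only that the letters are not there.

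Genes of the MHC class I pathway rose in both lines, 19 of 21 in B16F10 and 20 of 21 in 6694c2 (9.68% and 8.67% of all genes tested). Of the 21, 15 had a more positive effect in 6694c2 and none in B16F10, against 5.09% and 5.03% of all genes tested. The other 6 were not called, and the median interaction was -0.95. Unlike the antiviral genes, these did not start higher in B16F10 as a group. In vehicle 6 were higher in B16F10 and 6 in 6694c2, close to the shares of all genes tested (31.5% and 30.8%). With IFNβ 2 were higher in B16F10 and 17 in 6694c2, against 33.9% and 32% of all genes. H2-K1, a classical heavy chain, was at 7.31, 12.1 and 12.7 CPM in B16F10 vehicle and 136, 152 and 148 in 6694c2 vehicle. It reached 70.1, 76.0 and 94.4 CPM in B16F10 with IFNβ, still below every 6694c2 vehicle library, and 1202, 1130 and 1421 in 6694c2. The lines did not overlap before or after treatment, and the interaction of H2-K1 was -0.21 (95% interval -0.57 to 0.15), not called. H2-D1, the other classical heavy chain measured, rose by 2.44 in B16F10 and 2.97 in 6694c2 (interaction -0.53, adjusted p = 0.0042), the smallest called difference of the list.

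B2m, the invariant light chain, ended higher in B16F10, at 2208, 2068 and 2273 CPM against 1023, 829 and 1209 in 6694c2, from 330, 348 and 368 against 86.6, 91.2 and 94.5 (interaction -0.84, SE 0.128, adjusted p = 4.96e-05). The levels of H2-K1 and B2m were thus ordered in opposite ways between the lines. Tap1, a peptide transporter subunit, rose from 6.82 ± 1.54 to 143 ± 12.6 CPM in B16F10 and from 2.71 ± 0.126 to 209 ± 13.8 in 6694c2 (interaction -1.89, SE 0.186, adjusted p = 3.48e-08). Psmb8, a catalytic subunit of the immunoproteasome, gave the lowest called value, -2.69 (adjusted p = 1.98e-06): it rose from 1.59 ± 0.656 to 20.7 ± 2.59 CPM in 6694c2 and from 1.0 ± 0.0678 to 2.00 ± 0.125 in B16F10. Its partner Psmb9 rose to 17.3 ± 1.80 CPM in B16F10 and 31.1 ± 2.17 in 6694c2, with an interaction of -1.24 (adjusted p = 0.00703). Nlrc5, the transactivator of class I genes, rose from 0.923 ± 0.559 to 23 ± 1.86 CPM in B16F10 and from 0.116 ± 0.0535 to 17.6 ± 2.20 in 6694c2 (interaction -2.58, adjusted p = 0.00494), with 6694c2 vehicle at 0.503% of the B16F10 IFNβ level.

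None of the 10 class II genes had a called effect in either line or a called interaction by edgeR, none had an unadjusted p under 0.05 in any of these comparisons, and DESeq2 called none. Ciita, their transactivator, stayed under 1 CPM on average in all 4 groups. H2-Aa, a class II chain, was at 6.68 ± 3.62 CPM in B16F10 vehicle, 7.17 ± 4.31 in B16F10 IFNβ, 10.6 ± 0.926 in 6694c2 vehicle and 10.3 ± 1.39 in 6694c2 IFNβ. The sum of the 10 ranged from 23 to 74.7 CPM over the 12 libraries.

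Among 22 measured chemokines and cytokines of 27, 3 had a more positive effect in 6694c2 and none in B16F10, against 5.09% and 5.03% of all genes tested. Cxcl10, which draws T cells through CXCR3, was at 18.7, 22.5 and 22.3 CPM in B16F10 vehicle and 3.17, 2.41 and 1.41 in 6694c2 vehicle. With IFNβ it reached 620, 572 and 576 in B16F10 and 681, 666 and 776 in 6694c2, so 6694c2 passed B16F10 after starting lower (interaction -3.44, SE 0.177, adjusted p = 4.65e-14). The 6694c2 vehicle level of Cxcl10 was 0.395% of the B16F10 IFNβ level. Csf1, the macrophage growth factor, rose to 87.6 ± 2.01 CPM in B16F10 and 23.4 ± 1.79 in 6694c2, with an interaction of -0.98 (adjusted p = 8.92e-05). The other called gene was Ccl2, a monocyte chemokine at 5.54 CPM in 6694c2 IFNβ and 0.0804 in B16F10 IFNβ. Ccl5, which draws T cells and monocytes, rose from 10.4 ± 0.508 to 14.9 ± 0.421 CPM in B16F10 and was at 0.367 ± 0.159 and 0.314 ± 0.106 in 6694c2, with no called interaction (0.79, SE 0.448). Tnfsf10, the death ligand TRAIL, rose from under 0.1 CPM on average to 6.18 ± 0.862 in B16F10 and 15.7 ± 0.50 in 6694c2 and was not called (-1.14, SE 0.943), with B16F10 vehicle at 0.507% of the 6694c2 IFNβ level. The Ifnb1 gene itself had 0 reads in all 12 libraries.

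Most checkpoint ligands and immunomodulators had no called interaction. Of 12 measured, Cd274 and Nectin2 were more positive in 6694c2, Cd47 was more positive in B16F10 and 9 were not called. Over all genes tested the shares were 5.09% and 5.03%. Cd274, which encodes PD-L1, went from 2.74, 3.14 and 4.20 to 29.4, 33.4 and 35.6 CPM in B16F10 and from 1.64, 0.897 and 0.796 to 21.4, 19.2 and 20.2 in 6694c2. Its interaction of -0.91 (SE 0.270, adjusted p = 0.0285) was lost without B16F10 vehicle 3, B16F10 IFNβ 1, 6694c2 vehicle 2 or 6694c2 vehicle 3 (adjusted p of up to 0.116). Cd47, the signal that holds off phagocytosis, went from 27.6, 26.4 and 25.9 to 150, 141 and 150 CPM in B16F10 and from 175, 185 and 195 to 362, 375 and 404 in 6694c2. The groups did not overlap at all, and the 5.52-fold rise in B16F10 exceeded the 2.05-fold rise in 6694c2 (interaction 1.43, SE 0.0995, adjusted p = 3.24e-11), which still left Cd47 lower in B16F10. Nectin2, a ligand of TIGIT and DNAM-1, rose in 6694c2 by 0.82 on the log2 scale and was not called in B16F10 (interaction -0.87, adjusted p = 6.65e-06).

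Of 20 cell death genes, 2 had a more positive effect in B16F10, 4 in 6694c2 and 14 were not called (5.03% and 5.09% of all genes tested were called). Gsdmd, the pore former of pyroptosis, rose from 1.21 ± 0.207 to 7.71 ± 1.12 CPM in B16F10 and from 58.4 ± 2.93 to 148 ± 3.86 in 6694c2 (interaction 1.34, adjusted p = 8.89e-06). The B16F10 vehicle level of Gsdmd was 0.818% of the 6694c2 IFNβ level. Cflar, an inhibitor of caspase-8, went from 48.8 ± 5.06 to 92.9 ± 9.26 CPM in B16F10 and was not called in 6694c2, at 27.6 ± 0.737 and 29.2 ± 2.00 (interaction 0.85, adjusted p = 4.47e-05). Casp1, the inflammasome caspase, had the lowest value at -3.00 (adjusted p = 0.000644), from 0.609 ± 0.139 to 3.08 ± 0.625 CPM in 6694c2. Mlkl, the executioner of necroptosis, rose by 1.70 in B16F10 and 2.22 in 6694c2 (interaction -0.52, adjusted p = 0.000454).

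DNA replication and mitosis genes fell in B16F10, and few were called in 6694c2. Of 25 measured, 19 fell and none rose in B16F10 (9.15% and 9.68% of all genes tested), with a median log2 fold change of -0.37. In 6694c2, 2 fell and 3 rose, with a median of -0.03, where 9.27% and 8.67% of all genes did so. The interaction was more positive in 6694c2 for 14 of the 25 and in B16F10 for none, with a median of -0.38. Over all genes these shares were 5.09% and 5.03%. Ccnb2, a mitotic cyclin, was at 110, 111 and 114 CPM in B16F10 vehicle and 49.4, 50.9 and 56.0 with IFNβ. In 6694c2 it was at 108, 111 and 114 in vehicle and 94.5, 97.1 and 99.4 with IFNβ, so the lines were alike before treatment and apart after it (interaction -0.90, SE 0.0979, adjusted p = 2.24e-07). Cdc20, which starts anaphase, fell by 0.68 on the log2 scale in B16F10 and was not called in 6694c2 (0.04), with an interaction of -0.71 (adjusted p = 3.11e-05). Plk1, a mitotic kinase, fell in B16F10 (-0.22) and rose in 6694c2 (0.37), and Mcm6, a helicase subunit loaded at origins, rose in 6694c2 (0.38) with no called change in B16F10 (-0.15). The smallest called difference was that of Mcm7 (-0.30, adjusted p = 0.0376), lost without B16F10 vehicle 1, B16F10 vehicle 2 or 6694c2 vehicle 2.

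**Figure D5:**
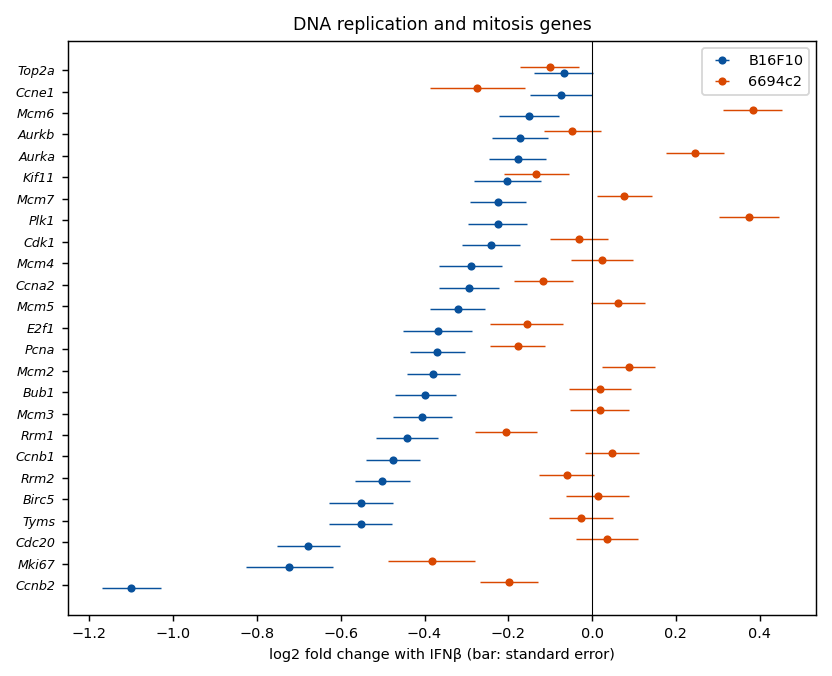
Log2 fold change with IFNβ and its standard error in B16F10 (blue) and 6694c2 (orange) for 25 DNA replication and mitosis genes, ordered by the B16F10 value. All 25 B16F10 points lie left of 0, down to -1.10 for Ccnb2, and the 6694c2 points lie on both sides of it.

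Myc, a driver of growth and division picked out after its values were seen, went opposite ways. It was at 35.2, 31.6 and 28.9 CPM in B16F10 vehicle and 17.1, 20.1 and 18.5 with IFNβ, and at 121, 121 and 121 in 6694c2 vehicle and 204, 219 and 225 with IFNβ. No groups overlapped, and the interaction was -1.61 (SE 0.114, adjusted p = 4.14e-11). The cholesterol and fatty acid synthesis genes moved little: 4 of 20 were more positive in 6694c2 and none in B16F10, against 5.09% and 5.03% of all genes tested. Their median was -0.15, and -0.23 without 6694c2 IFNβ 1. The extremes were Cyp51, a sterol demethylase (-0.56, adjusted p = 0.000516), which rose in 6694c2 from 229 ± 22.8 to 320 ± 23.7 CPM, and Srebf2, the regulator of the pathway (-0.31, adjusted p = 0.0362), which had no called change in either line and lost its call without B16F10 vehicle 3, B16F10 IFNβ 1 or 6694c2 vehicle 3.

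Fewer known interferon-stimulated genes favored B16F10. Plscr2, a phospholipid scramblase, was at 3.65, 3.46 and 2.91 CPM in B16F10 vehicle and 55.5, 53.0 and 45.6 with IFNβ. In 6694c2 it was at 0.821, 0.561 and 1.10 and then 1.60, 0.908 and 0.926, overlapping and not called (interaction 3.44, SE 0.380, adjusted p = 2.97e-07). Its chromosome 9 neighbor Plscr1, the better known interferon-induced scramblase, had no called change in either line, at 42.7 ± 3.48 and 46.4 ± 1.52 CPM in B16F10 and 275 ± 16.1 and 264 ± 12.9 in 6694c2. Ncoa7, which has an interferon-inducible antiviral isoform, went from 22, 25.6 and 21.9 to 100, 89.0 and 89.6 CPM in B16F10. In 6694c2 it was at 33.5, 26.4 and 26.3 in vehicle and 25.7, 27.4 and 24.6 with IFNβ, so Ncoa7 responded in B16F10 alone from starting levels that were close (interaction 2.15, SE 0.135, adjusted p = 3.63e-12). Isg20, an exonuclease that degrades viral RNA, rose in both lines, from 2.40, 3.06 and 2.59 to 77.3, 78.8 and 86.5 CPM in B16F10 and from 36.3, 46.5 and 47.6 to 280, 260 and 338 in 6694c2. It was the 1 antiviral effector with a more positive effect in B16F10 (interaction 2.15, SE 0.171, adjusted p = 4.97e-10), and it was over 10 times higher in 6694c2 vehicle. Ddit3, which encodes the stress factor CHOP and was picked out after its values were seen, rose from 30.6 ± 0.664 to 115 ± 10.0 CPM in B16F10 and from 4.04 ± 0.183 to 6.13 ± 0.810 in 6694c2 (interaction 1.29, adjusted p = 2.46e-06).

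The other 8 of the 10 highest interactions chosen by size fell in 6694c2, and Fgf1 and Chadl among them also rose in B16F10. Fgf1, a fibroblast growth factor, fell from 18.8, 21 and 19.2 to 9.31, 8.90 and 8.22 CPM in 6694c2 and rose from 7.12, 8.34 and 7.74 to 12.1, 12.7 and 11.3 in B16F10 (interaction 1.79, SE 0.157, adjusted p = 3.60e-09). Sema6d, a semaphorin, fell from 5.75 ± 0.50 to 2.06 ± 0.529 CPM in 6694c2 with no called change in B16F10 (1.75, adjusted p = 1.98e-06), and Megf9, a membrane protein with EGF repeats, fell from 18.7 ± 2.76 to 7.08 ± 0.904 (1.64, adjusted p = 1.58e-08). Card14, an activator of NF-κB in epithelia, was at 1.52, 1.40 and 2.02 CPM in 6694c2 vehicle and 0.50, 0.50 and 0.629 with IFNβ (1.73, adjusted p = 0.000179), with no called change in B16F10 at 13.4 ± 0.459 and 14.8 ± 1.74. Chadl rose by 0.65 in B16F10 and fell by 1.33 in 6694c2 on the log2 scale (interaction 1.99, adjusted p = 0.0035). Platr16 (1.68, adjusted p = 0.0257), Calr3 (1.66, adjusted p = 0.000262) and Srgap1 (1.65, adjusted p = 0.0018) completed the set. Chadl, Platr16 and Srgap1 were under 2 CPM in 6694c2 in both groups, and the call on Platr16 was lost without B16F10 IFNβ 2, 6694c2 vehicle 1 or 6694c2 IFNβ 1 (adjusted p of up to 0.119).

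Genes called in opposite directions in the lines and for the interaction numbered 172, 114 of them raised in B16F10 and lowered in 6694c2, and 58 the reverse. Only 4 of the 172 passed 2-fold in both lines, and each of them was over 10 times higher in 1 line's vehicle libraries. Ifi27, a mitochondrial protein of the interferon-stimulated set, was at 280, 274 and 292 CPM in B16F10 vehicle and 86.9, 91.6 and 99.6 with IFNβ, a fall by 1.60 on the log2 scale. In 6694c2 it rose from 7.10, 11.2 and 8.94 to 30.4, 29.8 and 33.8 CPM (interaction -3.39, SE 0.140, adjusted p = 3.06e-16). It was the 1 member of the 4 interferon-response lists that fell in either line. The other 3, among them Nid2, a basement membrane protein, and Myo7b, a microvillar myosin, fell in 6694c2 and rose in B16F10, where none passed 1 CPM in any library. Nid2 had 0 reads in B16F10 vehicle. Sdc3, a syndecan picked out after its values were seen, fell from 84.8 ± 2.30 to 61.3 ± 4.02 CPM in B16F10 and rose from 13.8 ± 0.816 to 54.8 ± 2.85 in 6694c2 (-2.46, adjusted p = 4.57e-15).

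Lineage markers gave called interactions at trace levels. Of the 12 melanocyte genes, 10 had a more positive effect in B16F10 and 10 fell in 6694c2, against 5.03% and 9.27% of all genes tested. In 6694c2 the 12 summed to 93.0 to 96.0 CPM in vehicle and 28.8 to 43.4 with IFNβ, against 19767 to 19986 CPM in B16F10 vehicle. Tyr, the rate-limiting enzyme of melanin synthesis, was at 3.29, 3.76 and 4.04 CPM in 6694c2 vehicle and 1.33, 1.04 and 0.889 with IFNβ, or 0.527% and 0.155% of the B16F10 vehicle level (interaction 1.54, adjusted p = 5.96e-07). The list ranged from Sox10 (0.84, adjusted p = 0.0329), a melanocyte lineage factor whose call was lost in 10 of 19 alternatives, to Slc24a5 (1.68, adjusted p = 3.08e-06), a melanosome exchanger. Of the 12 epithelial and ductal genes, 5 had a more positive effect in B16F10 and 7 rose there, against 5.03% and 9.68% of all genes tested. The 12 summed to 15.9 to 22.7 CPM in B16F10 vehicle and 20.4 to 57.4 with IFNβ, against 14009 to 14978 CPM in 6694c2 vehicle. Krt18, a simple-epithelium keratin, was at 3.61, 5.24 and 4.32 CPM in B16F10 vehicle and 11.3, 9.96 and 4.58 with IFNβ (interaction 0.75, adjusted p = 0.0414), 0.115% and 0.225% of the 6694c2 IFNβ level. The call on Krt18 was lost in 12 of 19 alternatives, and that on Epcam, an epithelial adhesion protein (2.84, adjusted p = 0.00856), with the robust fit and without B16F10 IFNβ 1. The part of the traces in these values was not tested. T-cell and macrophage markers had no called interaction, with 5 of 7 and 3 of 7 under the read minimum.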

How the data were processed

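The authors trimmed the paired-end reads of the bulk RNA libraries with cutadapt, aligned them with STAR and counted them per gene with Rsubread. The deposited values are raw read counts, 1 file per library. The genome build, the annotation release, strand setting and treatment of multi-mapping reads are not given in the sources used here, and 91.4% of the genes shared with GENCODE M21 (GRCm38) had the same coordinates. Symbols from a table of gene identifiers were found for 48970 of 49315 genes. The single-cell samples were not analysed here.

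The 12 libraries were fitted together with edgeR 4.0.16 (R 4.3.3): TMM scaling, 1 mean per group, quasi-likelihood tests of 5 contrasts and Benjamini-Hochberg adjustment over 19209 genes with at least 10 reads. Levels are CPM after TMM scaling, SE is the log2 value over the root of the F statistic, and 95% intervals are t intervals on the degrees of freedom of the fit. The scripts were tested on simulated counts with known interactions. Nothing says that libraries of a group came from separate cultures, so p-values measure the spread between libraries, which may be technical. Replicates of a group were not duplicates: every pair differed by more than sampling noise.

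Members and gene lists were chosen with earlier results of these data known. Named genes were 30 genes of the pathway, the 10 largest called interactions in each direction (at least 5 CPM in a group, not over 10 times higher in 1 line's vehicle, no predicted symbols), the 4 largest each way of genes called in opposite directions past 2-fold in both lines and not marked (none met this), and the called extremes of each list. Genes named outside these rules (such as Ly6e, Lgals9, Ifi27, Myc, Sdc3, Nectin2, Cflar, Ccl2, Plscr1, Tyr, Cdc20 and Tmem173) were chosen after their values were seen. Alternatives were DESeq2 1.42.0, RLE scaling, filterByExpr, no filter, robust fitting, a replicate block, all 24 bulk libraries, leaving out marked or low genes, and leaving out each library. Some items are not reported here.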

Additional observations from a re-analysis of the deposited data

Results flagged for a closer look

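The IFNβ effect differed between the lines for 1944 genes by the edgeR test of the difference itself, and named genes among them are given here with the log2 interaction in brackets, negative where the effect was more positive in 6694c2. Genes picked out after their values were seen, such as Ly6e, are left out of these lists. Among the most negative values were those of Irf7 (-8.50), Ifit1bl1 (-6.85), Ddx60 (-4.99), Slfn2 (-4.83), Isg15 (-4.69), Ifit1 (-4.61), Gvin1 (-4.41), Cfb (-4.32), Usp18 (-4.17), Pax5 (-4.11) and Ly6a (-4.01). Phf11a (-6.55) and Ifit1bl2 (-4.90) were called too, but had 0 reads in 6694c2 vehicle, so these fitted values are no measured size. What was measured is a rise of at least 121-fold in 6694c2 and 15.7-fold in B16F10 for Phf11a, and of at least 58.0-fold and 21.1-fold for Ifit1bl2. Among the genes above are transcripts such as Irf7 and Ifit1bl1 that stayed under 3 CPM in B16F10 with IFNβ.

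Somewhat smaller ones were found for Ifi209 (-3.59), Ifit3 (-3.58), Cxcl10 (-3.44), Ddx58 (-3.21), Irf9 (-3.00), Rsad2 (-3.00), Casp1 (-3.00), Ifih1 (-2.73), Psmb8 (-2.69) and Nlrc5 (-2.58). The next group held Tap1 (-1.89), Irgm1 (-1.42), Psmb9 (-1.24) and Dtx3l (-1.22). Under 2-fold lay Csf1 (-0.98), Cd274 (-0.91), Ccnb2 (-0.90), B2m (-0.84), Znfx1 (-0.75), Irf1 (-0.57), Cyp51 (-0.56), H2-D1 (-0.53), Mlkl (-0.52), Stat2 (-0.51), Srebf2 (-0.31) and Mcm7 (-0.30).

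The effect was more positive in B16F10 for Plscr2 (3.44), Epcam (2.84), Ncoa7 (2.15), Isg20 (2.15), Chadl (1.99), Fgf1 (1.79), Sema6d (1.75) and Card14 (1.73), and less so for Platr16 (1.68), Slc24a5 (1.68), Calr3 (1.66), Srgap1 (1.65), Megf9 (1.64), Cd47 (1.43), Gsdmd (1.34), Sox10 (0.84), Gbp2 (0.80) and Krt18 (0.75). Groups of 3 libraries are too small for a test of single outlying libraries, and none was run.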

How the results depend on the processing

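No called value of the report reversed its direction under the 22 alternatives tried. Values near 0 changed sign: the median over all genes was -0.003 without B16F10 IFNβ 3 or 6694c2 vehicle 1, and the interactions of Lgals9, Ciita and H2-Aa, which were not called, took both signs. Without genes over 10 times higher in 1 line's vehicle libraries, 128 genes passed 2-fold toward B16F10 and 162 toward 6694c2. When all 6 libraries of a line set the limit, these counts were 129 and 169. With the limit from vehicle, the median interaction was -1.96 for antiviral effectors and -2.03 for the ISG15 list. It was -0.98 for chemokines and -1.36 for the 4 interferon lists together. With the limit from 6 libraries the sensors' median was -1.36. Without genes under 2% of the other line's level, 145 genes passed 2-fold toward B16F10 and 120 toward 6694c2, and 119 genes rose in both lines and more in 6694c2. The medians were -0.88 (sensors), -0.77 (antiviral), -1.22 (ISG15 list) and -0.70 (4 lists). That limit drops genes that rose far from a low level, so part of these shifts follows from the rule itself. Leaving out 1 library at a time gave 587 to 937 genes more positive in B16F10 and 850 to 1382 more positive in 6694c2, the larger count each time. It gave 17 to 33 raised in both and more so in B16F10 and 1185 to 1641 lowered in 6694c2. Medians were -3.36 to -2.74 (antiviral) and -1.35 to -1.11 (sensors). The cause was not tested. By DESeq2 1151 genes were more positive in B16F10 and 1275 in 6694c2. Same-numbered vehicle and IFNβ libraries did not deviate together (r from -0.147 to 0.122), so the numbers were not taken as pairs, and with the replicate block 1165 and 1156 genes were called. The longer core, which adds CT after the second GAAA, was found in 69 of all promoters and 46 of those of tested genes, in 22, 1 and 5 of the genes raised in both lines (more in 6694c2, more in B16F10, not called), in 1 and 0 of those raised in 6694c2 or B16F10 alone and in 0 and 1 of those lowered in 6694c2 or B16F10 alone. Depth limits the genes near 0 reads in a group, such as Phf11a, Ifit1bl2 and Gvin1.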
